A study of Mus musculus with 16 samples.

Results

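The transcripts of 10 acute phase proteins were followed in mouse liver: the serum amyloid A genes Saa1, Saa2, Saa3 and Saa4, the orosomucoid genes Orm1, Orm2 and Orm3, haptoglobin (Hp), lipocalin 2 (Lcn2) and the inter-alpha-trypsin inhibitor heavy chain gene Itih3. They are 10 of the 25006 genes in the deposited count table and were chosen by name, and all 10 passed the filter on low counts that left 13180 genes for testing. The 16 liver libraries came from C57BL/6 mice in 4 groups of 4: fast food slurry with antibiotic water (FF_Abx), chow slurry with antibiotic water (Chow_Abx), fast food slurry with control water (FF) and chow slurry with control water (Chow). Each mouse had 1 gavage of slurry, and livers were collected 4 h afterwards. The labels name neither the antibiotics nor their doses, the length of treatment or the age and sex of the mice. No label says whether a replicate number is a separate mouse, so p-values measure the spread between these samples.

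The acute phase response is the change in plasma proteins that follows infection or injury. Hepatocytes receive IL-6, acting through STAT3, together with IL-1 and TNF, acting through NF-kappaB and C/EBP factors, and they then make more of the positive acute phase proteins and less of the negative ones such as albumin. Serum amyloid A proteins bind high-density lipoprotein, orosomucoids carry small lipophilic molecules, haptoglobin binds free haemoglobin, lipocalin 2 withholds iron from bacteria by binding their siderophores, and Itih3 contributes a heavy chain that is joined to hyaluronan. Saa1, Saa2 and Lcn2 are known for very large rises in mouse liver after endotoxin, Saa4 is known as the constitutive member of its family, and Saa3 is known from macrophages and adipose tissue as well as from liver.

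On the GRCm38 assembly the serum amyloid A genes lie together on chromosome 7: Saa3 at chr7:46711998-46715700, Saa4 at chr7:46727998-46732603 and Saa1 at chr7:46740497-46742980 on the minus strand, and Saa2 at chr7:46751790-46754313 on the plus strand. The orosomucoid genes lie together on the plus strand of chromosome 4, Orm1 at chr4:63344560-63348163, Orm3 at chr4:63356162-63359511 and Orm2 at chr4:63362449-63365878. Hp lies at chr8:109575128-109579172, Lcn2 at chr2:32384633-32388252 and Itih3 at chr14:30908572-30923760, each on the minus strand. All 10 are annotated as protein coding, and the counts are per gene over its exons.

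RefSeq promoter windows on GRCm38.p6 matched 8 of the 10 members by symbol. The bases upstream of the RefSeq start are printed 5′ to 3′ on the gene's strand for the pair Saa1 and Saa2, which moved together in these libraries, for Saa4 from the same cluster, which followed them less closely, and for the neighbours Orm2 and Orm3. Capitals mark the letters TTGCNCAA on either strand, a pattern that C/EBP factors can bind. The Saa2 window stops at the start of the gene as annotated, so it holds 207 bases, and the others hold 250.
Saa1 upstream, chr7:46742981-46743230, minus strand: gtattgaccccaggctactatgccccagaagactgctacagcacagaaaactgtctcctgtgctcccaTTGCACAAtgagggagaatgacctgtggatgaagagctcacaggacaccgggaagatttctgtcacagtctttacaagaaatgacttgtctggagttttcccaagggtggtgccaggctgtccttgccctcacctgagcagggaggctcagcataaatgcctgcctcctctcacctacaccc
Saa2 upstream, chr7:46751583-46751789, plus strand: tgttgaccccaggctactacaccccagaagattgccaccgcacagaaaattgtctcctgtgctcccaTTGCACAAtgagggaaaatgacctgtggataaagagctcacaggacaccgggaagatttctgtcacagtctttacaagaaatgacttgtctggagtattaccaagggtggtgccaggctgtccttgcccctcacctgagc
Saa4 upstream, chr7:46732604-46732853, minus strand: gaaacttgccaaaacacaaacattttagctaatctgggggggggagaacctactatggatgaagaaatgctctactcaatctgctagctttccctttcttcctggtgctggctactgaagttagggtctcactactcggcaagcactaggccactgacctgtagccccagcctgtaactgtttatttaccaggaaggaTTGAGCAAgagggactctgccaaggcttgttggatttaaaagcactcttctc
Orm2 upstream, chr4:63362199-63362448, plus strand: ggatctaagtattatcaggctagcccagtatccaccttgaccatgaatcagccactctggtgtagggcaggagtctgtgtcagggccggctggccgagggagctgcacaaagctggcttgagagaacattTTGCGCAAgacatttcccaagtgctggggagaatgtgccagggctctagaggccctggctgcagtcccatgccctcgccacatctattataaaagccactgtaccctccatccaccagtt
Orm3 upstream, chr4:63355908-63356157, plus strand: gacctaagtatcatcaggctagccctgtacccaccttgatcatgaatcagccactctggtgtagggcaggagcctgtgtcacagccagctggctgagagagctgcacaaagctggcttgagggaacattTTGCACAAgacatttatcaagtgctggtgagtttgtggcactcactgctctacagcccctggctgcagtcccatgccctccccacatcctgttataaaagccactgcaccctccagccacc
Over 250 bases, the upstream sequences of Saa1 and Saa2 were identical at 238 of 251 aligned positions (94.8%), and those of Orm2 and Orm3 at 219 of 255 (85.9%). The other pairs among the 8 windows had 45.7% to 54.9% identity.

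The C/EBP-type letters were found in 6 of the 8 windows, where they stood 182 to 175 bases before the start of Saa1 and 183 to 176 bases before that of Saa2. They were 120 to 113 bases before the start of Orm2 and 121 to 114 bases before that of Orm3, 216 to 209 before that of Lcn2 and 52 to 45 before that of Saa4, and the Saa3 and Itih3 windows held none. Over all 32851 RefSeq windows of this length, 857 (2.61%) held them. A STAT-type pattern, TTCNNNGAA, which reads the same way on both strands, was in none of the 8 windows and in 7.02% of all windows. The patterns were chosen after the sequences had been read, and a match is a description of letters, not of binding.

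Total counts per library ran from 8954378 to 18954655. The genes Lars2, Mir6236, Gm20594 and Mir6240 were summed as an rRNA-like share, which is not a measured rRNA fraction. This share was 0.12% to 0.587% of the counts in 9 libraries and 2.45% to 8.42% in the other 7. The 3 libraries with raised acute phase transcripts were among those 7, at 2.71% (FF_Abx replicate 2), 7.69% (Chow_Abx replicate 4) and 2.45% (Chow replicate 2). The other 4 of the 7, at 3.96% to 8.42%, were not raised. Liver markers were present at high levels in each library: 10 hepatocyte markers summed to 113900 to 178100 CPM in FF_Abx, 187000 to 243000 in Chow_Abx, 130800 to 141800 in FF and 123400 to 153400 in Chow. Fewer cells of a type and less RNA per cell cannot be told apart in such bulk libraries. CPM are counts scaled to library totals after TMM normalisation, and no value below is corrected for transcript length unless it is given per kilobase.

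Per kilobase of the annotated main transcript, Hp was the most abundant member, with a median level of 3002 CPM per kb over the 16 libraries. Itih3 at 540 and Orm1 at 515 CPM per kb followed, close to each other. Saa1 had a median level of 40.4 CPM per kb, Saa4 36.7 and Saa2 18.8, while Orm2 at 8.85, Lcn2 at 7.68, Saa3 at 4.11 and Orm3 at 3.84 CPM per kb were lowest. The members differed far more in how much they varied: the highest library had 319 times the lowest in CPM for Saa2, 290 times for Lcn2, 224 times for Saa1 and 90.0 times for Saa3, against 5.85 times for Hp, 5.75 times for Orm1 and 3.20 times for Itih3. Orm3 spanned 127 times, but its counts ran from 1 to 113 per library, so its low values rest on few reads.

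Saa1 and Saa2 are near copies, and 13.2% of the 50-base stretches of the Saa1 transcript also occur in Saa2. Orm1 and Orm2 share 20.4% of theirs, and Orm3 shares 3.59% with the other orosomucoids. The counting of reads that match several genes is not stated, so the split within Saa1 and Saa2 and within Orm1 and Orm2 is uncertain to that extent, and Orm2, at far lower counts than Orm1, is the more exposed. Hp, Lcn2 and Itih3 shared no 50-base stretch with another gene.

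The levels of 3 libraries stood apart in these transcripts, and the description of the gene set names them: FF_Abx replicate 2, Chow_Abx replicate 4 and Chow replicate 2. In FF_Abx replicate 2 all 10 members were at the highest level of their group, in Chow replicate 2 this held for 8 of 10, and in Chow_Abx replicate 4 for 6 of 10. Compared with the median of the other 3 libraries of its group, Saa2 was 172 times as high in FF_Abx replicate 2, 47.0 times in Chow_Abx replicate 4 and 25.1 times in Chow replicate 2. Lcn2 was 89.5, 13.9 and 31.9 times as high in the same libraries, and Saa1 69.2, 34.1 and 30.5 times. Itih3, by contrast, was 2.11, 0.983 and 1.42 times the median of the others. No FF library was raised in this way: Saa1 there ran only from 17.0 to 37.7 CPM. These ratios describe the libraries and are not tested, because the libraries were picked out by these levels.

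**Figure D1:**
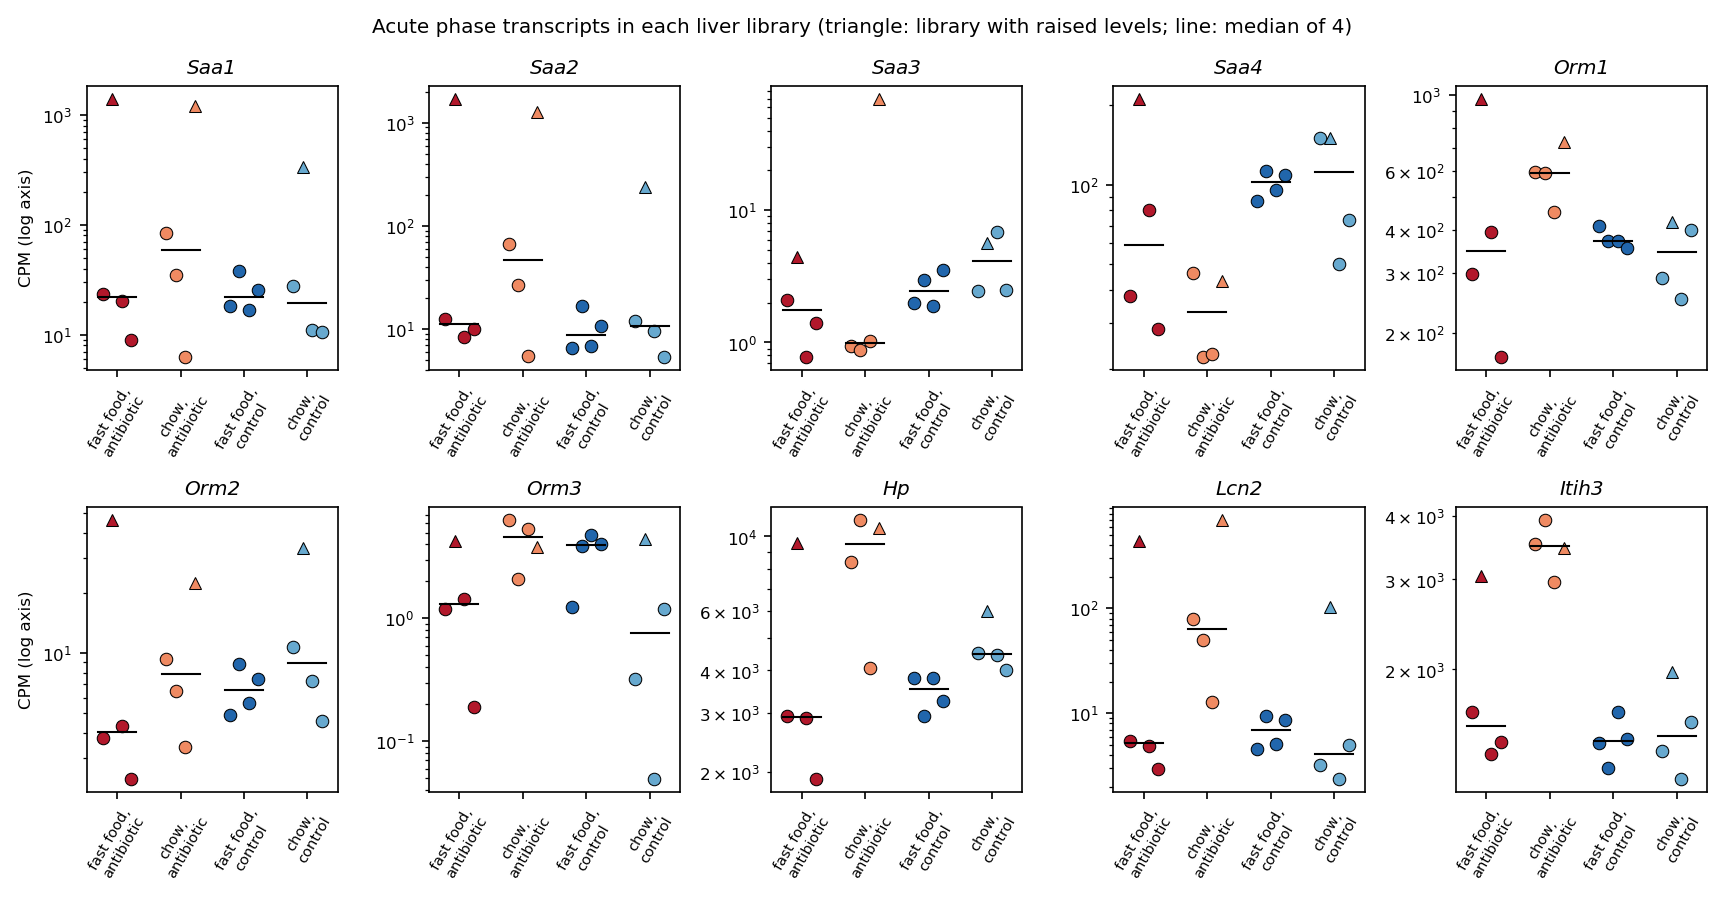
Each panel shows 1 member as CPM on a log axis in the 16 libraries, grouped as fast food with antibiotic water, chow with antibiotic water, fast food with control water and chow with control water; triangles are FF_Abx replicate 2, Chow_Abx replicate 4 and Chow replicate 2, and lines are medians of 4. Saa1, Saa2 and Lcn2 reach 336 to 1398, 240.0 to 1699 and 102.7 to 689.5 CPM in the triangles, while Itih3 is high in all 4 Chow_Abx libraries, at 2960 to 3914 CPM.

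**Figure D2:**
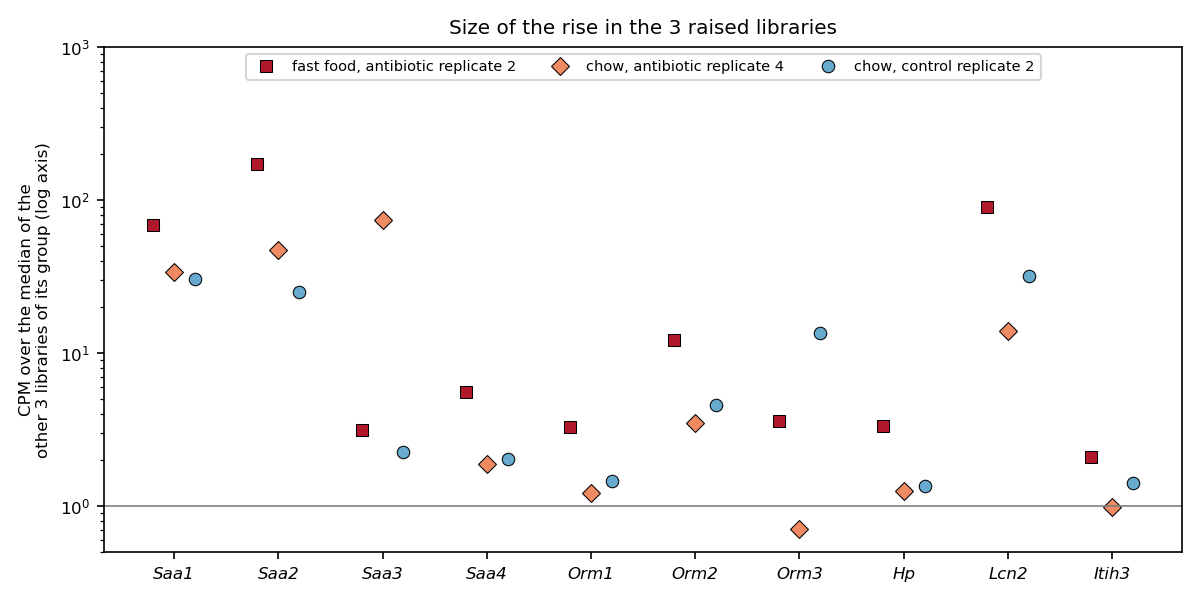
Each point is the CPM of a member in 1 raised library divided by the median of the other 3 libraries of its group, on a log axis, with a line at no difference. Saa1, Saa2 and Lcn2 lie between 13.9 and 172 times in all 3 libraries, Saa3 reaches 73.7 times in Chow_Abx replicate 4 but 3.15 and 2.27 times in the others, and Orm1, Hp and Itih3 lie between 0.983 and 3.33 times.

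The 3 raised libraries differed in their pattern. Saa3 was 69.6 CPM in Chow_Abx replicate 4 but 4.45 CPM in FF_Abx replicate 2, although FF_Abx replicate 2 had more Saa1 and Saa2. Hp was 9581 CPM in FF_Abx replicate 2, 3.33 times the median of the other FF_Abx libraries, whereas in Chow_Abx replicate 4 it was 10620 CPM and below the 11160 CPM of Chow_Abx replicate 2. Orm2 was 46.2 CPM in FF_Abx replicate 2 and 33.5 CPM in Chow replicate 2, against 2.36 to 10.7 CPM in the libraries of those groups that were not raised.

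The design compared fast food with chow in each kind of water, antibiotic with control water after each meal, and the meal effect between the waters. With all 16 libraries, Itih3 rose and Saa4 fell in Chow_Abx relative to Chow, Itih3 was lower in FF_Abx than in Chow_Abx, and no other member passed an adjusted p of 0.05 in any comparison (edgeR quasi-likelihood test, Benjamini-Hochberg over 13180 genes). The count of called members was 0 of 10 in FF against Chow, where 0.577% of all genes tested were called, and 1 of 10 in FF_Abx against Chow_Abx, where 13.7% were called. It was 2 of 10 in Chow_Abx against Chow, where 23.8% were called, 0 of 10 in FF_Abx against FF, where 5.99% were called, and 0 of 10 for the interaction, where 3.94% were called. These shares of members are near the share of all genes or below it, so the counts show nothing particular to the members. At an unadjusted p under 0.05 edgeR counted 0 members in FF against Chow, 1 in FF_Abx against FF (Saa2) and 1 for the interaction (Itih3), and DESeq2 called 0 in each of those 3 comparisons, giving no adjusted p for Saa1, Saa2 or Saa3. The comparisons share libraries, so they are not independent of each other.

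The ranges of the groups were compared as well. Between Chow_Abx and Chow, 3 of the 10 members did not overlap, Saa4 lower and Orm1 and Itih3 higher, where 24.8% of all genes did not overlap. Between FF and Chow, Hp alone did not overlap, at 2924 to 3806 CPM in FF and 4019 to 5992 CPM in Chow, where 10.3% of all genes did not. All members overlapped between FF_Abx and Chow_Abx, where 14.5% of genes did not overlap, and between FF_Abx and FF, where 18.4% did not.

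Saa1, an HDL-binding acute phase protein, was 23.5, 1398, 20.2 and 9.05 CPM in FF_Abx, 83.8, 35.1, 6.25 and 1198 CPM in Chow_Abx, 18.4, 37.7, 17.0 and 25.8 CPM in FF, and 27.7, 336, 11.0 and 10.6 CPM in Chow. Each group except FF had 1 library far above the other 3, and those 3 overlapped between all groups. The log2 fold change was 0.14 ± 1.76 (SE) for FF_Abx over Chow_Abx, 1.78 ± 1.82 for Chow_Abx over Chow, 3.88 ± 1.98 for FF_Abx over FF and −1.96 ± 1.84 for FF over Chow, with adjusted p of 0.970, 0.513, 0.238 and 0.766 (edgeR). The standard error was larger than 0.5 of the difference in each comparison.

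Saa2, its near copy, was 12.5, 1699, 8.41 and 9.90 CPM in FF_Abx, 66.0, 26.9, 5.50 and 1264 CPM in Chow_Abx, 6.53, 16.5, 6.78 and 10.7 CPM in FF, and 12.02, 240.0, 9.57 and 5.33 CPM in Chow. The same libraries were high as for Saa1, and the groups overlapped. FF_Abx over FF gave the member set's lowest p in that comparison, a log2 fold change of 5.41 ± 2.31 with an adjusted p of 0.163 (edgeR). Without FF_Abx replicate 2 that log2 fold change was −0.00101.

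The level of Saa2 relative to Saa1, per kilobase, was 0.537, 1.22, 0.418 and 1.10 in FF_Abx, 0.792, 0.769, 0.885 and 1.06 in Chow_Abx, 0.356, 0.441, 0.401 and 0.418 in FF, and 0.436, 0.718, 0.874 and 0.507 in Chow. The 4 FF libraries lay close together and low, and the highest ratios, above 1, were in FF_Abx replicates 2 and 4 and Chow_Abx replicate 4. FF_Abx replicate 4 was not a raised library, at 9.05 CPM of Saa1 and 9.90 CPM of Saa2. On the log2 scale the mean ratio was −1.31 ± 0.13 in FF and −0.71 ± 0.46 in Chow (SD, n = 4), with a two-sided exact permutation p of 0.0571. The other 3 comparisons had exact permutation p of 0.0857 (FF_Abx against FF), 0.114 (Chow_Abx against Chow) and 0.543 (FF_Abx against Chow_Abx), and Benjamini-Hochberg values over the 4 were 0.152, 0.152, 0.152 and 0.543. None passed 0.05, and 0.0286 is the smallest p that 4 against 4 allows.

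Saa3 was 2.09, 4.45, 0.773 and 1.42 CPM in FF_Abx, 0.944, 0.876, 1.03 and 69.6 CPM in Chow_Abx, 1.98, 2.95, 1.89 and 3.56 CPM in FF, and 2.47, 5.70, 6.84 and 2.51 CPM in Chow. Outside Chow_Abx replicate 4, the Chow_Abx values were below every FF and Chow value, from 10 to 18 counts a library, so 1 library decided the sign of the comparison. With all libraries the log2 fold change of Chow_Abx over Chow was 1.95 ± 1.19 with an adjusted p of 0.259 (edgeR), and without Chow_Abx replicate 4 it was −2.18 ± 0.53 with an adjusted p of 0.00904 (edgeR). The fit without that library called 22.5% of all genes. Leaving out the library with the highest Saa3 narrows the spread of Saa3, so this call is not an independent test. Chow_Abx replicate 4 also held 97.85 CPM of neutrophil markers in sum, described below.

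Saa4, the constitutive family member, was 38.0, 211, 80.2 and 28.4 CPM in FF_Abx, 46.3, 22.3, 22.8 and 43.0 CPM in Chow_Abx, 87.1, 112.2, 95.5 and 108.9 CPM in FF, and 150.7, 150.1, 50.2 and 73.6 CPM in Chow. All 4 Chow_Abx libraries were below all 8 libraries of control water. Saa4 fell in Chow_Abx relative to Chow by 1.66 ± 0.57 on the log2 scale, with an adjusted p of 0.0493 (edgeR) and 0.0245 (DESeq2). The call is at the edge of the threshold: leaving out 1 library at a time gave adjusted p from 0.0111 to 0.118 and kept the call in 4 of 16 fits. In FF_Abx, 3 of 4 libraries were below every FF library while replicate 2 was above them, and the log2 fold change over FF was −0.17 ± 0.55 (adjusted p of 0.878, edgeR).

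Orm1, the most abundant orosomucoid, was 298, 975, 397 and 169.5 CPM in FF_Abx, 593, 591, 452 and 726 CPM in Chow_Abx, 412, 374, 373 and 355 CPM in FF, and 289, 424, 251 and 402 CPM in Chow. All 4 Chow_Abx libraries were above all 8 libraries of control water. The log2 fold change of Chow_Abx over Chow was 0.79 ± 0.38 with an adjusted p of 0.151 (edgeR). A fit to only the 8 libraries of Chow_Abx and Chow gave 0.81 ± 0.20 and an adjusted p of 0.0150 (edgeR), where 20.2% of all genes were called. Orm1 passed in this comparison in 3 of 24 alternative settings. Why the fits differ was not tested.

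Orm2 was 3.78, 46.2, 4.33 and 2.36 CPM in FF_Abx, 9.33, 6.48, 3.38 and 22.6 CPM in Chow_Abx, 4.92, 8.81, 5.61 and 7.47 CPM in FF, and 10.7, 33.5, 7.24 and 4.60 CPM in Chow. It was high in the 3 raised libraries and overlapped between all groups. No comparison passed, with adjusted p from 0.488 to 0.747 (edgeR).

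Orm3, the rarest of the family, was 1.19, 4.31, 1.44 and 0.189 CPM in FF_Abx, 6.28, 2.10, 5.39 and 3.83 CPM in Chow_Abx, 1.23, 3.89, 4.79 and 4.01 CPM in FF, and 0.322, 4.40, 0.0496 and 1.20 CPM in Chow. The 3 lowest values of Chow and the lowest of FF_Abx stood on 3, 1, 23 and 2 counts. The log2 fold change of Chow_Abx over Chow was 1.58 ± 0.85 (adjusted p of 0.198, edgeR) and that of the interaction −2.50 ± 1.20 (adjusted p of 0.247, edgeR).

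Hp, which clears haemoglobin, was 2926, 9581, 2880 and 1908 CPM in FF_Abx, 8398, 11160, 4056 and 10620 CPM in Chow_Abx, 3806, 2924, 3801 and 3245 CPM in FF, and 4510, 5992, 4440 and 4019 CPM in Chow. In Chow_Abx 3 of 4 libraries were above every control water library, and replicate 3 lay among them. The log2 fold change was −0.98 ± 0.42 for FF_Abx over Chow_Abx (adjusted p of 0.128) and 0.85 ± 0.42 for Chow_Abx over Chow (adjusted p of 0.154, both edgeR). For FF over Chow, where the groups did not overlap, it was −0.46 ± 0.42 with an adjusted p of 0.752 (edgeR).

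Lcn2, the siderophore-binding lipocalin, was 5.47, 438, 4.90 and 2.92 CPM in FF_Abx, 78.4, 49.7, 12.8 and 689.5 CPM in Chow_Abx, 4.60, 9.35, 5.15 and 8.58 CPM in FF, and 3.22, 102.7, 2.38 and 4.97 CPM in Chow. Each of the 4 Chow_Abx libraries was above every library of the other groups that was not raised. The log2 fold change of Chow_Abx over Chow was 2.87 ± 1.80 (adjusted p of 0.273) and that of FF_Abx over FF 4.03 ± 1.92 (adjusted p of 0.207, both edgeR).

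Itih3 was 1655, 3045, 1367 and 1445 CPM in FF_Abx, 3523, 3914, 2960 and 3464 CPM in Chow_Abx, 1439, 1283, 1648 and 1465 CPM in FF, and 1387, 1975, 1223 and 1582 CPM in Chow. The lowest Chow_Abx library was above every FF and Chow library and 3 of the 4 FF_Abx libraries, and FF_Abx replicate 2 lay inside the Chow_Abx range. Itih3 averaged 3465 ± 392 CPM in Chow_Abx and 1542 ± 324 CPM in Chow (SD, n = 4 per group), and the log2 fold change was 1.17 ± 0.22 with an adjusted p of 0.00137 (edgeR). The rise remained called in all 24 alternative settings, with adjusted p of at most 0.00639 (edgeR and DESeq2). FF_Abx averaged 1878 ± 787 CPM (SD, n = 4), and Itih3 was lower there than in Chow_Abx by a log2 fold change of −0.88 ± 0.22 (adjusted p of 0.0160, edgeR), a call lost in a fit to these 2 groups alone (0.0815) and without FF_Abx replicate 3 (0.0538) or replicate 4 (0.0594). The meal effect did not pass as different between the waters, with an interaction of −0.80 ± 0.31 and an adjusted p of 0.138 (edgeR).

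Leaving out the 3 raised libraries, an alternative chosen after the data had been seen, changed the calls. In Chow_Abx over Chow, 7 members then passed: Itih3 (log2 fold change 1.33), Lcn2 (3.75 ± 0.64), Orm3 (3.09 ± 0.80), Hp (0.89 ± 0.28) and Orm1 (0.82 ± 0.25) were higher, and Saa3 (−2.05 ± 0.44) and Saa4 (−1.55) were lower, where 29.8% of 13253 genes were called. In FF_Abx over Chow_Abx 5 members were lower, Itih3 (−1.25), Hp (−1.65 ± 0.28), Lcn2 (−3.42 ± 0.64), Orm1 (−0.95 ± 0.25) and Orm3 (−2.24 ± 0.75), where 24.2% of genes were called. The same 5 had a negative interaction that passed, from −1.23 ± 0.34 for Orm1 to −4.90 ± 1.07 for Orm3, where 14.0% of genes were called. In FF over Chow 0 members passed, where 1.21% of genes were called, and in FF_Abx over FF 0 passed, where 7.73% were called. The 3 libraries were left out for their levels of these transcripts, so this choice narrows the spread of the members themselves, and these calls do not stand as independent tests. The same limit holds below for other genes that are high in those libraries. The fold change of Saa1 and Saa2 did not pass here either, at 1.42 ± 0.80 and 1.93 ± 0.75 for Chow_Abx over Chow.

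**Figure D3:**
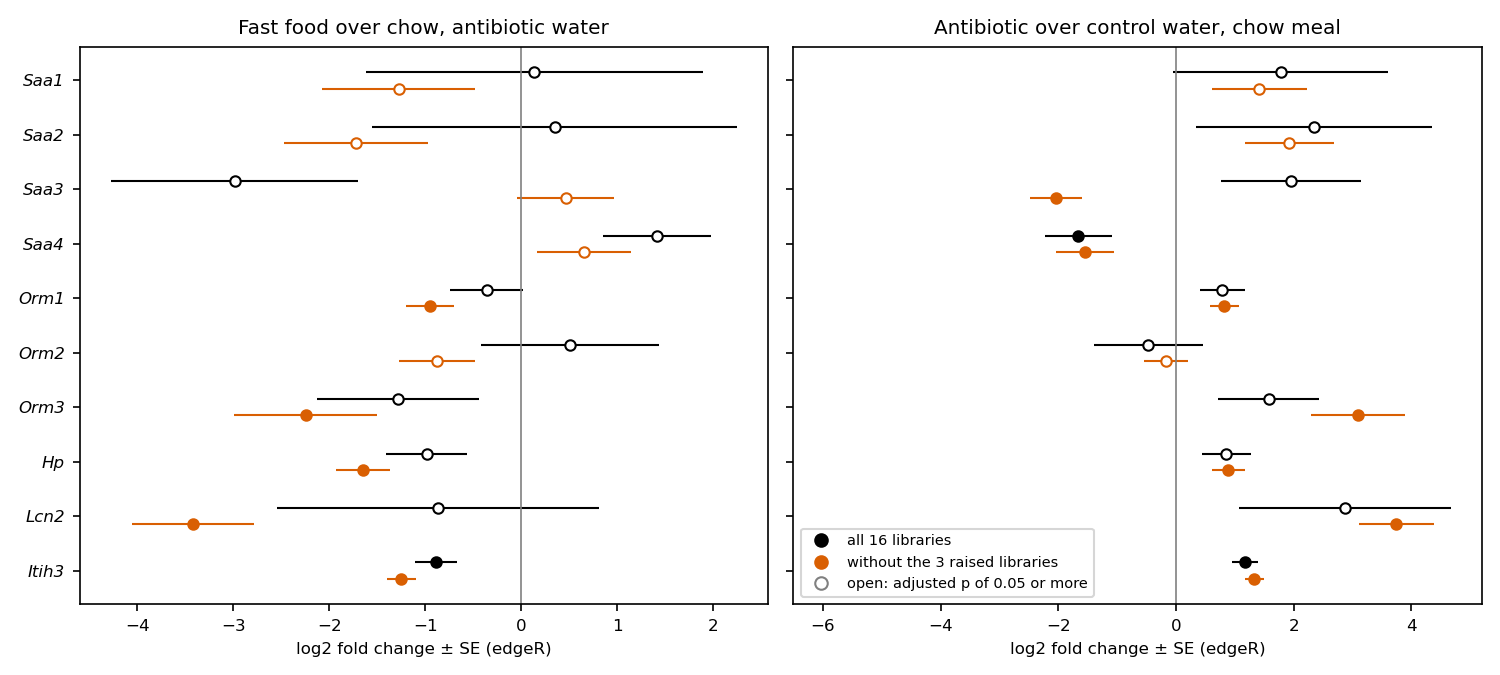
Log2 fold changes ± SE of the 10 members from edgeR, for fast food over chow in antibiotic water on the left and antibiotic over control water after chow on the right; black points use all 16 libraries, orange points leave out the 3 raised libraries, and open points did not pass an adjusted p of 0.05. With all libraries the filled points are Itih3 on the left (−0.88) and Saa4 (−1.66) and Itih3 (1.17) on the right; Saa3 changes sign on the right, 1.95 against −2.05.

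Other acute phase genes were read from a list that left out the members. Of 30 positive acute phase genes listed from textbook knowledge, 29 were tested. In Chow_Abx over Chow 4 passed as higher, Serpina3k (1.12 ± 0.20, a serine protease inhibitor), Hamp (1.39 ± 0.29, the iron hormone hepcidin), Cp (0.94 ± 0.21, the copper carrier ceruloplasmin) and C3 (0.68, a complement component), and 2 passed as lower, Vnn1 (−2.71 ± 0.54, a pantetheinase) and Cfb (−0.48, complement factor B). The median log2 fold change of the 29 was 0.76 beside −0.00575 over all genes, and 26 of 29 were positive. In FF_Abx over Chow_Abx 3 were lower, Serpina3k (−1.10 ± 0.20), Cp (−0.997 ± 0.209) and Hamp (−1.05 ± 0.29), and Vnn1 was higher (1.67), with a median of −0.63 beside 0.03. The interaction passed for Serpina3k alone by edgeR (−1.27 ± 0.28), and DESeq2 called Cp as well. Serpina3k was not the highest of its group in any raised library. It was 10420, 16360 and 8954 CPM in those of FF_Abx, Chow_Abx and Chow, where the group maxima were 11020, 25140 and 11600 CPM. Vnn1 was not the highest there either, at 30.0, 29.0 and 114.6 CPM, whereas Hamp was, at 716.6, 1136 and 522 CPM. In FF over Chow and in FF_Abx over FF 0 of 29 passed (edgeR), with 0 and 7 at an unadjusted p under 0.05 and 0 and 3 called by DESeq2. The 6 of 29 called in Chow_Abx over Chow and 4 of 29 in FF_Abx over Chow_Abx stand beside 23.8% and 13.7% of all genes, and DESeq2 called 10 and 7 of the 30 listed there. Without the 3 raised libraries, 15 were higher and 2 lower in Chow_Abx over Chow, 2 were higher and 19 lower in FF_Abx over Chow_Abx, and 13 passed as lower in the interaction, where 29.8%, 24.2% and 14.0% of all genes were called.

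With all 16 libraries, the 9 positive acute phase genes given next did not pass in any comparison (edgeR), and DESeq2 called Apcs alone among them, in Chow_Abx over Chow (adjusted p of 0.0416). For Chow_Abx over Chow the log2 fold changes were 1.65 ± 0.66 for Apcs (serum amyloid P), 1.57 ± 0.74 for Serpina3n, 0.76 ± 0.46 for Fgb, 0.62 ± 0.49 for Fga (both fibrinogen chains), 0.59 ± 0.39 for Lbp (the endotoxin carrier), 0.51 ± 0.21 for Crp, 0.42 ± 0.56 for Lrg1, 0.27 ± 0.40 for Itih4 and 0.26 ± 0.25 for Hpx (haemopexin). Serpina3n was 448, 4205, 499 and 309.9 CPM in FF_Abx, 1833, 1500, 1258 and 2609 CPM in Chow_Abx, 398, 465, 495 and 454 CPM in FF, and 396, 1177, 285 and 571 CPM in Chow. All 4 Chow_Abx libraries and the raised libraries of FF_Abx and Chow were above the rest. Without the 3 raised libraries 5 of these 9 genes passed as higher in Chow_Abx than in Chow (edgeR): Serpina3n (1.90, adjusted p of 3.67e-05), Apcs (2.17, 0.000193), Fgb (0.92, 0.0029), Fga (0.82, 0.00552) and Crp (0.58, 0.0209). In the same fit 6 of the 9 were lower in FF_Abx than in Chow_Abx, Serpina3n, Apcs, Fga, Fgb, Lbp and Itih4, with log2 fold changes from −2.25 to −0.74. That fit called 29.8% of all genes in Chow_Abx over Chow and 24.2% in FF_Abx over Chow_Abx. The libraries left out were highest in their groups for Serpina3n, Fga, Fgb, Lbp and Itih4, and in FF_Abx and Chow for Apcs and Crp. Leaving them out narrows the spread, so these calls are not independent tests.

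Most genes known to fall in the acute phase were higher in Chow_Abx. Of 13 negative acute phase genes, 8 were higher in Chow_Abx than in Chow, among them Fetub (1.13 ± 0.18), Igf1 (1.17 ± 0.19) and Alb (0.88 ± 0.20), and Serpina6, the corticosteroid carrier of plasma, was lower (−2.32 ± 0.34, adjusted p of 0.000408, edgeR). Alb, albumin, was 69820, 110700, 69310 and 54690 CPM in FF_Abx, 139200, 165700, 107000 and 159200 CPM in Chow_Abx, 70250, 67190, 76760 and 76640 CPM in FF, and 68900, 77060, 71110 and 93080 CPM in Chow. In FF_Abx over Chow_Abx 8 of the 13 were lower, Alb (−0.91 ± 0.20) and Ttr (−0.83 ± 0.20, the thyroxine carrier) among them, and Serpina6 was higher (1.68 ± 0.34). Of all genes tested, 23.8% were called in Chow_Abx over Chow and 13.7% in FF_Abx over Chow_Abx. The median of the 13 was 0.73 for Chow_Abx over Chow and −0.60 for FF_Abx over Chow_Abx, the same signs as the medians of the positive list. For the interaction 1 of the 13 passed as higher and 4 as lower (edgeR), where 3.94% of all genes were called, and DESeq2 called 8. Fetub (−1.08 ± 0.25), Apoa1 (−0.98 ± 0.22) and Apoa2 (−0.95 ± 0.23) were among those lower. Without the 3 raised libraries the counts were 8 higher and 1 lower in Chow_Abx over Chow, where 29.8% of all genes were called. They were 1 higher and 9 lower in FF_Abx over Chow_Abx, where 24.2% were called, and 1 higher and 7 lower for the interaction, where 14.0% were. Hepatocyte markers, which share Alb, Ttr and Apoa1 with this list, moved likewise: 6 of 10 were higher in Chow_Abx than in Chow and 5 of 10 lower in FF_Abx than in Chow_Abx, and their part in the members' changes was not tested.

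The signalling genes that act upstream of the members were counted next. Of 17 tested genes of IL-6 and STAT3 signalling, Il6ra (0.83 ± 0.24) and Il6st (0.63 ± 0.19), the chains of the IL-6 receptor, were higher in Chow_Abx than in Chow, and Tyk2 (−0.57 ± 0.15), a kinase, and Cebpa (−0.66 ± 0.18), a liver transcription factor, were lower. These 4 of 17 are a share close to the 23.8% of all genes called there. Stat3 (0.77 ± 0.37), Socs3 (1.29 ± 1.32), Cebpb (0.63 ± 0.45) and Cebpd (1.74 ± 0.62) did not pass there, with adjusted p from 0.0572 to 0.513 (edgeR). Socs3, the feedback inhibitor that STAT3 induces, was 7.07, 75.6, 5.93 and 6.04 CPM in FF_Abx, 42.7, 53.8, 75.3 and 514 CPM in Chow_Abx, 6.85, 4.78, 17.2 and 23.0 CPM in FF, and 9.88, 249, 6.20 and 14.1 CPM in Chow. Without the 3 raised libraries Socs3 passed as higher in Chow_Abx than in Chow (2.53 ± 0.55, adjusted p of 0.00713) and as lower in FF_Abx than in Chow_Abx (−3.21 ± 0.59, adjusted p of 0.00384, both edgeR), and 6 of the 17 were higher and 3 lower in Chow_Abx than in Chow. That fit called 29.8% of all genes in Chow_Abx over Chow and 24.2% in FF_Abx over Chow_Abx. Socs3 was high in the libraries left out, so its calls there are not independent tests. Within each of FF_Abx, Chow_Abx and Chow, Socs3 was highest in the raised library. It was highest of all in Chow_Abx replicate 4, which had less Saa1 and Saa2 than FF_Abx replicate 2.

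Of 22 tested genes of IL-1, TNF and NF-kappaB signalling, 3 were higher in Chow_Abx than in Chow, Relb (2.72 ± 0.91), Rela (0.88 ± 0.29) and Traf6 (0.61 ± 0.17), and 2 were lower in FF_Abx than in Chow_Abx, Relb (−3.22 ± 0.96) and Nfkbia (−2.01 ± 0.61), the inhibitor that NF-kappaB induces. Both counts are lower shares than the 23.8% and 13.7% of all genes called in those comparisons. Relb was 41.2 CPM and Nfkbia 415.5 CPM in Chow_Abx replicate 4, against 1.55 to 3.00 and 59.7 to 62.2 CPM in the other Chow_Abx libraries. Without the 3 raised libraries Relb had 0.92 ± 0.37 for Chow_Abx over Chow, which did not pass (adjusted p of 0.0691, edgeR), and −1.29 ± 0.39 for FF_Abx over Chow_Abx, which did (0.0251). In that fit 7 of the 22 were higher and 2 lower in Chow_Abx than in Chow, where 29.8% of all genes were called. In FF_Abx over Chow_Abx 1 was higher and 10 lower, where 24.2% of all genes were called. FF_Abx replicate 2, with 1398 CPM of Saa1, had 1.87 CPM of Relb and 48.5 CPM of Nfkbia. Both were the highest of its group, against 0.567 to 1.70 and 27.6 to 39.6 CPM in the other FF_Abx libraries. Il1r1, the IL-1 receptor, was 98.3, 715, 81.9 and 44.3 CPM in FF_Abx, 486.5, 431, 463 and 688 CPM in Chow_Abx, 42.0, 51.6, 61.7 and 70.4 CPM in FF, and 110.3, 297, 41.6 and 108.0 CPM in Chow, and its log2 fold change of 1.89 ± 0.78 for Chow_Abx over Chow did not pass (adjusted p of 0.0973, edgeR). Myd88, the adaptor of that receptor, had 0.44 ± 0.53 (adjusted p of 0.584, edgeR).

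Among 7 tested genes of endotoxin and flagellin sensing, Tlr5, the flagellin receptor, was the only one called with all 16 libraries by edgeR. DESeq2 also called Cd14, the endotoxin co-receptor, as lower in FF_Abx than in Chow_Abx, and Ticam2, a Toll-like receptor adaptor that the filter on low counts kept out of the edgeR test, as lower in Chow_Abx than in Chow. Lbp, without the 3 raised libraries, passed as lower in FF_Abx than in Chow_Abx and Tlr2 as lower in FF_Abx than in FF (edgeR). Tlr5 was 3.48, 1.01, 7.22 and 4.06 CPM in FF_Abx, 0.389, 1.05, 1.03 and 1.56 CPM in Chow_Abx, 6.21, 4.63, 4.54 and 5.74 CPM in FF, and 6.98, 7.35, 5.35 and 5.75 CPM in Chow. It was lower in Chow_Abx than in Chow (−2.75 ± 0.46) and higher in FF_Abx than in Chow_Abx (2.09 ± 0.46), and the interaction passed (2.35 ± 0.60, adjusted p of 0.0390, edgeR). In FF_Abx its lowest library was replicate 2, the raised one. Of 7 tested receptors and carriers of the members' proteins, Cd36, a scavenger receptor that binds serum amyloid A, was higher in FF than in Chow (0.91 ± 0.20, adjusted p of 0.0488, edgeR). Scarb1, the HDL receptor, was lower in Chow_Abx than in Chow (−0.56 ± 0.12), and Apoa1, the HDL apolipoprotein that serum amyloid A displaces, was higher (0.93 ± 0.16). Of all genes tested, 0.577% were called in FF over Chow and 23.8% in Chow_Abx over Chow. The shares were 13.7% in FF_Abx over Chow_Abx and 3.94% for the interaction (edgeR, 16 libraries).

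**Figure D4:**
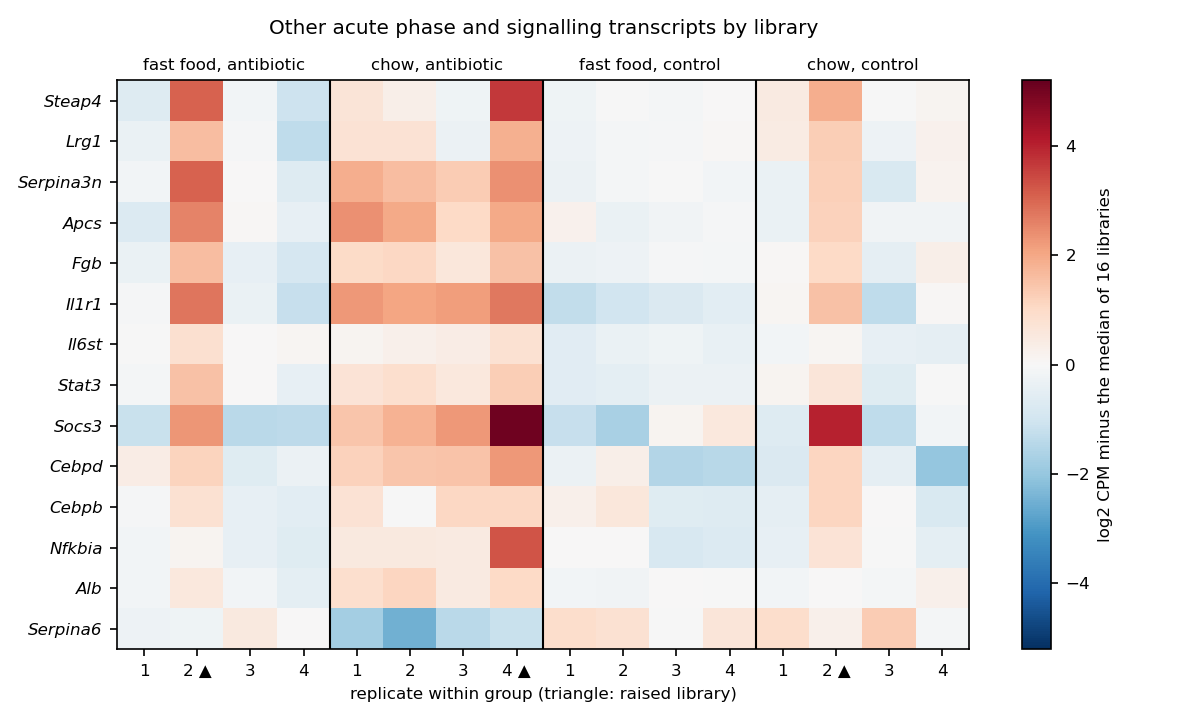
Colour gives the log2 CPM of 14 other acute phase, signalling and plasma protein genes in each library minus the gene's median over 16 libraries, with libraries in columns by group and triangles at the 3 raised libraries. Steap4 is highest in the raised columns, at 1318, 2040 and 578 CPM; Socs3, at 75.6, 514 and 249 CPM there, is also 42.7 to 75.3 CPM in the other Chow_Abx columns, Serpina3n and Il1r1 are high in all 4 Chow_Abx columns, and Serpina6 is low there.

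Markers of other cells were read beside the members. The 12 neutrophil markers summed to 1.42 to 10.7 CPM in FF_Abx, 4.53 to 97.85 CPM in Chow_Abx, 1.71 to 3.62 CPM in FF and 2.67 to 14.5 CPM in Chow, and the raised library was the highest of its group in each case. In Chow_Abx replicate 4 S100a8 was 22.7 CPM and S100a9 35.9 CPM, against 2.73 and 2.51 CPM in FF_Abx replicate 2 and 3.37 and 4.40 CPM in Chow replicate 2. Cxcr2, Csf3r, Retnlg and Mmp8 were also highest in the raised library of FF_Abx, of Chow_Abx and of Chow. They were at 5.40, 5.68, 14.6 and 11.2 CPM in Chow_Abx replicate 4. Elane and Ngp were at 0 CPM in FF_Abx replicate 2, but Elane had at most 4 counts in any library and Ngp at most 12, in Chow_Abx replicate 4. The neutrophil genes Ltf, Camp, Ly6g and Mpo had at most 3 counts in every library. The values of these 6 genes rest on few reads. Lcn2, which neutrophils also store, was 438 CPM in FF_Abx replicate 2. The 9 Kupffer cell markers summed to 152 to 242 CPM in FF_Abx, 176.5 to 214 CPM in Chow_Abx, 300.3 to 420.1 CPM in FF and 254 to 721 CPM in Chow, with 7 of 9 lower in Chow_Abx than in Chow and 6 of 9 lower in FF_Abx than in FF (edgeR). The shares of all genes called in these comparisons were 23.8% and 5.99%. The counts without the 3 raised libraries were 7 and 3, where 29.8% and 7.73% of all genes were called. With rRNA-like share as a covariate no gene of any kind was called in FF_Abx over FF. The raised libraries lay within the Kupffer range of their groups or at its low end, at 179.2, 193.8 and 254 CPM. The part of these cells in the members' levels was not tested.

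The members were related to one another in different degrees. Over the 16 libraries, with group means removed, log2 CPM of Lcn2 correlated with the mean of the other 9 members at r = 0.985, Saa1 at 0.983, Saa2 at 0.971 and Orm2 at 0.970, while Hp (0.811), Orm1 (0.804), Saa4 (0.792), Itih3 (0.764), Saa3 (0.580) and Orm3 (0.563) followed less closely. Over the 13 libraries that were not raised, r was 0.910 for Saa1, 0.887 for Lcn2, 0.824 for Orm2 and 0.718 for Saa2. It was 0.596 for Saa4, 0.553 for Hp and 0.502 for Orm1, but only 0.298 for Itih3, 0.217 for Orm3 and −0.197 for Saa3. Of 10427 other genes, Steap4, a metalloreductase known from inflamed liver, had the pattern most like the members' mean, at r = 0.969 over 16 libraries and 0.868 over 13. It was 1318 CPM in FF_Abx replicate 2, 2040 CPM in Chow_Abx replicate 4 and 578 CPM in Chow replicate 2, against group medians of 122, 222.5 and 197 CPM. Lrg1, a plasma glycoprotein of the acute phase, had 0.957 and 0.863, and Tank, an NF-kappaB adaptor, 0.951 and 0.752. Trak2 (0.966), Ddx3x (0.962), Tacc2 (0.958), Smad1 (0.956) and Tnfrsf1a (0.952), the TNF receptor, stood as high over 16 libraries but only at 0.438 to 0.615 over 13. These correlations describe libraries that share 3 high points and their depth, and no p is given.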

How the data were processed

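The authors deposited raw counts per gene for 16 liver libraries of single 50-base reads, with Ensembl identifiers. Per the submitters' processing notes, FastQC, cutadapt, STAR, HTSeq, DESeq2 and edgeR were used with GRCm38.p6, with versions, annotation release, strand setting and handling of multi-mapping reads not given in the sources used here. RNA was extracted with a column kit and made into mRNA libraries, per the labels' protocols. Multi-mapping and strand settings could shift counts between near copies such as Saa1 and Saa2.

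Identifiers were matched to symbols with GENCODE M21 (24942 of 25006). Genes were filtered with filterByExpr (minimum count 10), scaled with TMM and tested with the edgeR 4.0.16 quasi-likelihood test on 4 group means (R 4.3.3), with two-sided p adjusted by Benjamini-Hochberg over 13180 genes and a threshold of 0.05. The common biological coefficient of variation was 0.222. SE is the log2 fold change over the root of F. Total counts limit the precision of low members such as Orm3. The code was tested on simulated data. DESeq2 1.42.0, other scaling, filters, samples in the fit, a replicate block and each left-out library were alternatives. Promoter windows came from RefSeq, GRCm38.p6.

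The members and gene lists were chosen with earlier results of these data known. Named besides the members were 22 listed genes, up to 3 called genes of lowest p per list and comparison, and the 8 genes most like the members' mean. C3, Cfb and Il6st were named to complete counts after their values were seen.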

Additional observations from a re-analysis of the deposited data

Results flagged for a closer look

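In 12 of 40 groups of 4, the highest library stood apart from the others by a gap that exceeds Dixon's 95% limit on the CPM scale. For normal values, chance gives about 2 (1 in 20) for a gap at either end, and fewer for the highest alone. The 40 groups share libraries, so they are not independent. On the log2 scale the highest library passed the limit in 3 of 40. All 12 lie in the 3 libraries that the gene set's description already names as raised, so they are no new evidence for it. In FF_Abx replicate 2 these were Saa1 at 1398 CPM, Saa2 at 1699 CPM, Orm2 at 46.16 CPM, Hp at 9581 CPM and Lcn2 at 438.3 CPM. In Chow_Abx replicate 4 they were Saa1 at 1198 CPM, Saa2 at 1264 CPM, Saa3 at 69.59 CPM and Lcn2 at 689.5 CPM. In Chow replicate 2 they were Saa1 at 336.0 CPM, Saa2 at 240.0 CPM and Lcn2 at 102.7 CPM. In FF no highest library was apart in this way, and on the log2 scale 1 lowest library was, FF replicate 1 for Orm3 at 1.23 CPM. What sets these 3 libraries apart was not tested, and the labels record no illness, injury or handling difference. FF_Abx replicate 2 also lay inside the Chow_Abx range for some other genes. Marco was 27.2 CPM there, against 26.1 to 36.2 CPM in Chow_Abx, and Igf1 1125 CPM, against 975.9 to 1295 CPM. Apoa1 at 7966 CPM and Serpina3k at 10420 CPM were below the Chow_Abx ranges of 11400 to 15030 and 15810 to 25140 CPM. FF_Abx over Chow_Abx had 3042 calls without this library and 1800 with all 16.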

How the results depend on the processing

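The count of called members in Chow_Abx over Chow, 2 with all libraries, was 1 with RLE factors, without a filter on low counts, with the replicate block and with a covariate for rRNA-like share, 7 without the 3 raised libraries, and 1 to 4 when 1 library was left out, the highest without FF_Abx replicate 2. In FF_Abx over Chow_Abx, 1 with all libraries, it was 0 in a fit to the 2 groups, 5 without the 3 raised libraries and 0 to 4 with 1 library left out, again highest without FF_Abx replicate 2. For the interaction, 0 with all libraries, it was 5 without the 3 raised libraries and 0 to 3 with 1 left out, highest without FF_Abx replicate 2. In FF over Chow and FF_Abx over FF it stayed at 0 in every setting run.

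Signs reversed for Saa3 in Chow_Abx over Chow (−2.05 without the 3 raised libraries, and −2.18 to 2.39 with 1 library left out) and for Lcn2 in the interaction (−4.40 without the 3, against 1.16 with all, and −3.53 to 3.25 with 1 left out). The sign of Saa3 was negative when Chow_Abx replicate 4 alone was left out, at −2.18. Why that library differed, and the cause of the Lcn2 change, were not tested. Saa4 in Chow_Abx over Chow had adjusted p of 0.0523 with RLE factors, 0.0806 without a filter, 0.0775 with the block and 0.0604 with the covariate. Of 1175 alternatives of the 50 single values, 1066 kept direction and side of the threshold, 19 lost the call, 22 gained it and 65 uncalled values changed sign.

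No label says that replicate numbers pair the libraries, so the block was run as an alternative only. Same-numbered libraries correlated at −0.222 to 0.359 over 24 pairs. Differently numbered pairs were not correlated, so these values cannot decide whether the numbers pair libraries. Over all genes the calls were 76 in FF over Chow, with 299 by DESeq2, 365 in a fit to the 2 groups, 160 without the 3 raised libraries, 22 with the covariate and 11 to 155 with 1 left out. They were 1800 in FF_Abx over Chow_Abx, with 229 in a fit to the 2 groups, 3206 without the 3 and 697 to 3042 with 1 left out, and 790 in FF_Abx over FF, with 1523 by DESeq2, 0 with the covariate and 78 to 1102 with 1 left out. For the interaction they were 519, with 1106 by DESeq2, 1851 without the 3, 143 with the covariate and 164 to 1494 with 1 left out. Of the 30 listed positive acute phase genes DESeq2 called 7 in FF_Abx over Chow_Abx (4 by edgeR) and 10 in Chow_Abx over Chow (6 by edgeR, which did not test A2m, one of the 10). The covariate and the fit without the 3 raised libraries were chosen after the data had been seen.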
